A study of Homo sapiens with 6 samples.

Results

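Cytosolic ribosomal protein (RP) genes encode the proteins of the ribosome that translates nuclear mRNAs. Genes named RPL encode proteins of the large subunit, which forms peptide bonds, and genes named RPS encode proteins of the small subunit, which decodes the mRNA. Their mRNAs are short, abundant and mostly begin with a terminal oligopyrimidine (TOP) tract, a C followed by a run of C and T bases, through which mTOR and the RNA-binding protein LARP1 control their translation. The members described here are the genes whose symbol is RPL or RPS followed by a number, with or without A or X, together with RPLP0, RPLP1, RPLP2 and RPSA. This name rule found 77 of the 48183 gene symbols in the table, 46 of the large subunit and 31 of the small subunit, and the counts of identifiers that share a symbol were summed. No expression value entered the rule. It leaves out FAU, whose ribosomal protein is made as a fusion with a ubiquitin-like protein, and the RP paralogs, and these are given separately below.

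Naive and primed human embryonic stem cells (ESCs) were compared by bulk poly(A) RNA-seq, in order to examine cells converted to the naive state, which resembles the pre-implantation epiblast. All 6 libraries carried the EOS-GFP reporter. The labels name the line as H1, whereas the text of the study names it H9. The 2 primed libraries, primed EOS and primed CA-p38, were untreated parental cells grown in StemFit AK02N on Matrigel, and the latter also carried a doxycycline-inducible, constitutively active p38 (CA-p38). There were 4 naive libraries. AICAR 1 and AICAR 2 came from EOS cells treated with AICAR, an activator of AMPK (induction day 14, then 14 or 15 passages). VPA came from EOS cells treated with valproic acid (induction day 9, then 12 passages). CA-p38 came from the CA-p38 line given doxycycline (induction day 7, then 12 passages). These days need not be lengths of exposure. The study describes AICAR kept at a reduced concentration for a week after day 14, and doxycycline given for fewer than 7 days. Naive cells were sorted as CD75+/SUSD2+ from PXGL medium, and primed cells were not sorted, so that state, medium and sorting cannot be told apart. The labels describe mouse feeder cells for naive culture, whereas the study also describes a later stage of CA-p38 cells without feeders, and which of these this library came from is not given in the sources used here. Each library is 1 sample, and no source states separate cultures beyond the induction method, so p-values measure only the spread between these samples.

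Libraries held 46823699 to 54277064 counts. The 8 naive markers examined were all higher in naive libraries, with a summed level of 5066 to 5989 CPM (counts scaled by library total and TMM factor) against 8.50 to 12.3, and the 8 primed markers were all lower, with 64.8 to 85.5 CPM against 2832 to 3438. Of 8 fibroblast markers, 4 were lower and 1 was higher, and their sum was 50.9 to 92.7 CPM in naive and 192 to 210 CPM in primed libraries. The log2 fold changes of these 8 ran from -7.40 to 5.96. Among these markers LUM was at 0 in AICAR 2 and VPA, POSTN was at 0 in AICAR 1, and PDGFRB was at 0 in VPA. Of the neural, trophectoderm and hypoblast markers, 1 of 8, 4 of 7 and 1 of 8 were higher and 3, 1 and 6 were lower. Over all genes tested 26% were higher and 27% lower. The sums of these lists were 244 to 290, 109 to 153 and 37.4 to 45.9 CPM in naive libraries. In primed libraries they were higher, at 554 to 653, 515 to 647 and 160 to 188 CPM. Ribosomal protein sequences are similar in mouse and human, and the part of mouse feeder reads in the RP counts was not tested.

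To show the feature these mRNAs share, the 30 bases from 10 before to 20 after the annotated start are given for RPL36A, which rose most, for RPSA, RPL13A, RPS18 and RPL12, which also rose far, for 3 members at the low end, and for the paralog RPL22L1. Sequences are from RefSeq on GRCh38.p14. Capitals begin at the C nearest to the start that is followed by at least 4 C or T, and run to the end of that pyrimidine run. Any C or T bases of the same run before that C stay in lower case.

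RPL36A, chrX:101391001-101391030, + strand: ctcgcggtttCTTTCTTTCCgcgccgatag

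RPSA, chr3:39406710-39406739, + strand: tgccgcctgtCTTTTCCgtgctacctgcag

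RPL13A, chr19:49487598-49487627, + strand: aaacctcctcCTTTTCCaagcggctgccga

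RPS18, chr6:33272065-33272094, + strand: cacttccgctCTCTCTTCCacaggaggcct

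RPL12, chr9:127451387-127451416, - strand: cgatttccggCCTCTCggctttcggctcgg

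RPL22, chr1:6199576-6199605, - strand: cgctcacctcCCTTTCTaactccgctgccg

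RPL35, chr9:124861938-124861967, - strand: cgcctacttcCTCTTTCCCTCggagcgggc

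RPS26, chr12:56041908-56041937, + strand: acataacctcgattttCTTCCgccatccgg

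RPL22L1, chr3:170870176-170870205, - strand: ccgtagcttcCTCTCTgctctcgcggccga

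In 8 of these 9 windows the first marked C was the annotated first base, and in RPS26 it lay 6 bases further on. Of the 8, all but RPL12 also had a C or T directly before it. The windows were picked and lean towards tracts at the start. In RPL10 the nearest such C lay at -7 from the first base and in RPL4 at 5, and RPS4X had none within 20 bases. Of 6 paralogs with a matched window, 1 had a tract at the first base (16.7%), and it was RPL22L1. RefSeq start windows were matched for 62 of the 77 members. A C at the first base followed by at least 4 C or T, read on the strand of the gene only, was present in 42 of the 62 (67.7%), against 1104 of 27305 windows of all symbols (4.04%). Anywhere within 20 bases of the start, such a tract was present in 58 of the 62 members (93.5%) and in 50.8% of all windows. The tract did not mark the members that rose more. The median log2 fold change was 0.57 in members with a tract at the first base and 0.65 in matched members without one.

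RP genes took up a larger share of the counts in naive than in primed cells. The 77 genes together held 9.43% of AICAR 1 counts, 8.61% of AICAR 2 counts, 8.78% of CA-p38 counts and 10.1% of VPA counts. In the primed libraries they held 5.91% (EOS) and 5.60% (CA-p38). All 4 naive libraries were above both primed libraries, and the means were 9.24% ± 0.693 (SD, n = 4) and 5.76% ± 0.223 (SD, n = 2), a 1.60-fold difference. With 4 and 2 libraries the smallest p of an exact permutation test is 0.0667, and none is given for this sum. In bulk RNA a share of counts does not separate more RP mRNA per cell from less of other RNAs. The mitochondrially encoded share moved the same way, at 3.14% to 3.73% in naive and 1.85% to 2.92% in primed libraries, and its part in the result was not tested. Pseudogenes named after the members, 1277 rows of the table, held 2.22 to 2.90 counts per 100 RP counts in naive and 2.17 to 2.91 in primed libraries, so that their level relative to the RP genes overlapped between the states.

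**Figure D1:**
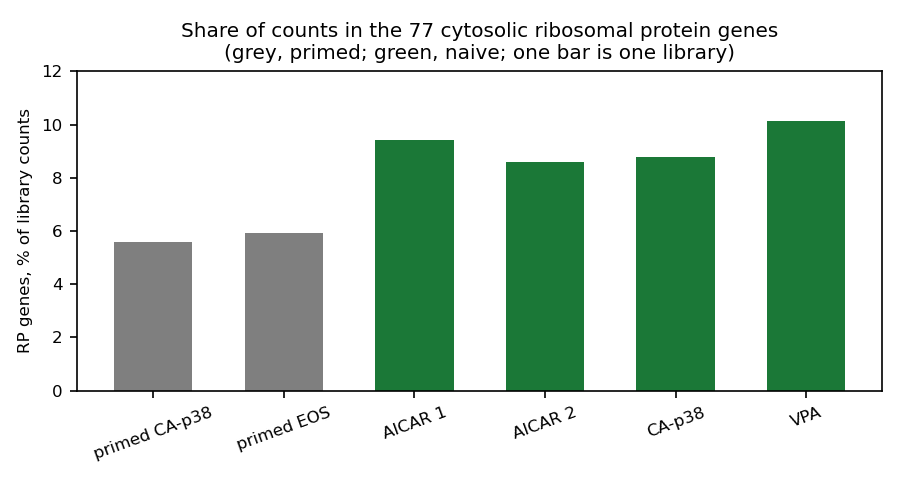
Share of each library's counts in the 77 cytosolic RP genes, in percent, with one bar for each library (grey, primed; green, naive). The primed libraries stand at 5.60% and 5.91% and the naive libraries between 8.61% and 10.1%.

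The rise was spread over most of the genes rather than carried by a few. By edgeR (quasi-likelihood, adjusted p under 0.05 by Benjamini-Hochberg across the 26497 genes fitted), 63 of the 77 members were higher in naive cells (81.8%), against 26% of all genes tested, and 1 was lower, against 27%. The other 13 were not called, and all 13 had a positive fold change. Every one of the 77 members passed the filter on low counts. The median log2 fold change was 0.58, a 1.5-fold difference, beside 0.11 for all genes tested, and the range ran from -0.27 to 1.33. In 65 members every naive value lay above both primed values (32.9% of all genes did so), in 1 every naive value lay below (32.1%), and in 11 the groups overlapped. Only 4 members differed by 2-fold or more. These counts depended on the scaling of the libraries. With library totals in place of TMM factors, 74 members were higher and none lower, and the medians of the members and of all genes moved to 0.68 and 0.21.

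**Figure D2:**
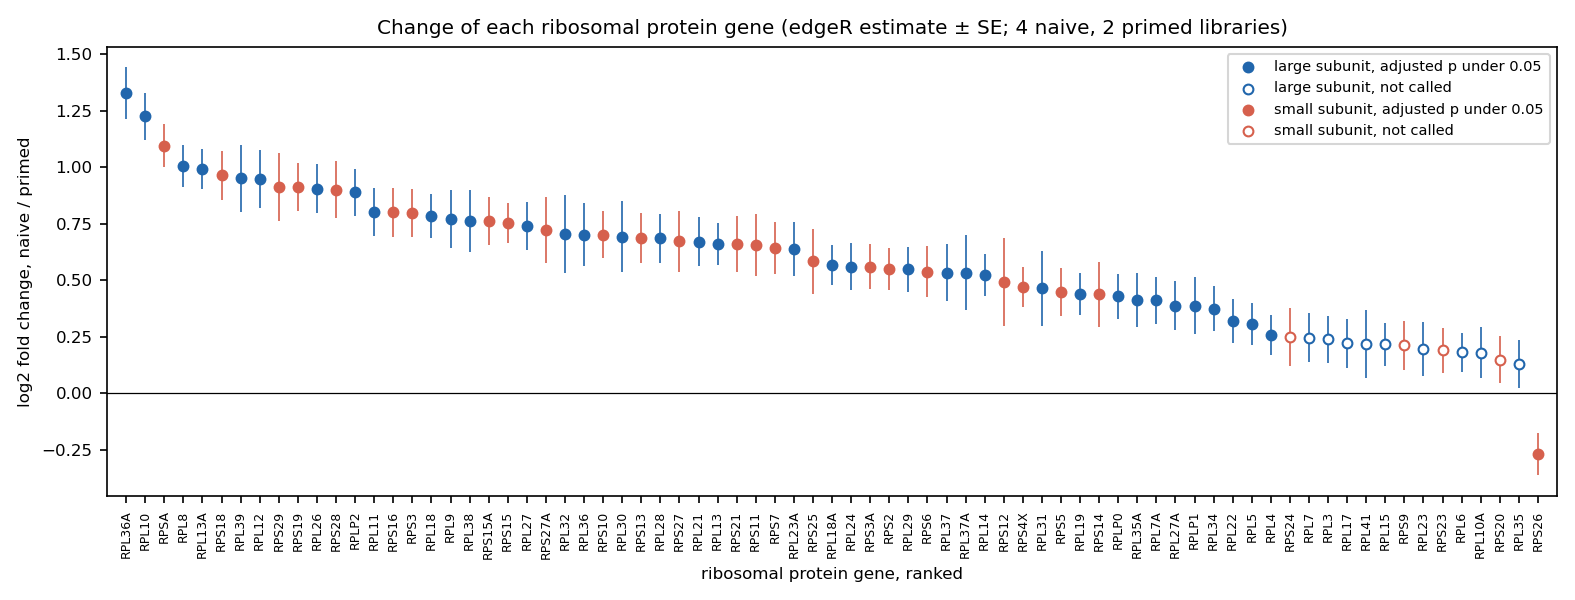
Log2 fold change of naive over primed cells for 75 of the 77 RP genes, ranked, as the edgeR estimate ± SE from 4 naive and 2 primed libraries (blue, large subunit; red, small subunit; filled, adjusted p under 0.05). RPL36A stands highest at 1.33, and RPS26 at -0.27 is the only point below 0.

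Both subunits moved together. Of the large-subunit genes 37 of 46 were higher, none was lower, and the median log2 fold change was 0.54. Of the small-subunit genes 26 of 31 were higher, 1 was lower, and the median was 0.65. Large-subunit mRNAs made up 62.0% to 62.6% of RP counts in naive and 63.3% to 63.5% in primed libraries, a small difference in which the groups did not overlap.

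RPL36A, a large-subunit protein that lies at the exit site for tRNA, rose most. Its level was 1199, 1072, 1070 and 1355 CPM in AICAR 1, AICAR 2, CA-p38 and VPA, and 471 and 464 CPM in primed EOS and primed CA-p38. Every naive library was thus far above either primed library, with a log2 fold change of 1.33 ± 0.11 (SE, edgeR adjusted p = 5.83e-07). RPL10, which joins the large subunit late in its maturation, followed, at 1352, 1206, 1192 and 1425 CPM against 538 and 568 CPM. Its log2 fold change was 1.23 ± 0.10 (SE, edgeR adjusted p = 5.12e-07), and the groups were again far apart.

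The most changed small-subunit gene was RPSA, which is also known as the laminin receptor. It was measured at 2543, 2220, 2647 and 2624 CPM in the naive libraries, in the same order, and at 1168 and 1179 CPM in the primed libraries. The log2 fold change was 1.10 ± 0.10 (SE, edgeR adjusted p = 7.55e-07). RPL8 and RPL13A of the large subunit rose by 1.0 ± 0.09 and 0.99 ± 0.09 (SE) on the log2 scale. In RPL13A the naive libraries lay between 3392 and 3807 CPM and the primed libraries at 1707 and 1908 CPM.

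RPS18 is of practical interest because the methods use it as the reference gene for RT-qPCR. It was 1846, 1520, 1721 and 1972 CPM in AICAR 1, AICAR 2, CA-p38 and VPA, and 912 and 897 CPM in primed EOS and primed CA-p38. The lowest naive library thus exceeded the higher primed library, and the log2 fold change was 0.96 ± 0.11 (SE, edgeR adjusted p = 7.51e-06). These are shares of mRNA counts, and no level per cell was measured here. Its counts are a sum over 6 identifiers, most of them copies of the same gene on alternate haplotypes, none holding over 19.8% of the total.

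At the other end stood RPS26, a small-subunit protein at the channel through which mRNA leaves the ribosome. It was the one member below 0, at 284, 263, 249 and 258 CPM in naive and 305 and 330 CPM in primed libraries. The groups did not overlap, but the gap between the highest naive and the lowest primed library was small, and the log2 fold change was -0.27 ± 0.09 (SE, edgeR adjusted p = 0.0288). The call was lost without CA-p38 (adjusted p = 0.0537), without primed CA-p38 (0.202), with library totals (0.116) and with limma-voom (0.0794). Pseudogenes named after RPS26 held 11.9 counts for each 100 of its own, one of the higher ratios among the members.

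The smallest rises that passed the test were in RPL4, RPL5, RPL22, RPL34 and RPLP1, with log2 fold changes of 0.26, 0.31, 0.32, 0.37 and 0.39. RPL4 lines the exit tunnel of the large subunit, and its levels of 2439, 2157, 2486 and 2548 CPM against 1979 and 2051 CPM were close together. Its call was lost in 8 of 16 alternatives, among them leaving out AICAR 1, CA-p38, VPA or either primed library (adjusted p = 0.0576 to 0.140). RPL22 and RPLP1 also lost their calls without primed CA-p38 (0.0645 and 0.157). RPL22 lost its call without primed EOS too (0.0542), RPLP1 without AICAR 1 (0.067), and RPL5 without AICAR 1 (0.0515) or primed CA-p38 (0.0911). The members that were not called included RPL35, at 902, 765, 814 and 970 CPM in naive and 817 and 761 CPM in primed libraries, and RPL10A and RPS20, with log2 fold changes of 0.13, 0.18 and 0.15. In all 3 the groups overlapped. The other 10 that were not called were RPL3, RPL6, RPL7, RPL15, RPL17, RPL23, RPL41, RPS9, RPS23 and RPS24, with log2 fold changes of 0.18 to 0.25.

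Among other members, 3 with well-known roles were chosen after their values were seen. RPS19, the gene most often mutated in Diamond-Blackfan anemia, was 1028, 944, 941 and 1144 CPM in naive and 561 and 516 CPM in primed libraries and rose by 0.91 ± 0.11 (log2, SE). RPS6, the ribosomal substrate of S6 kinases, was 2784, 2177, 2456 and 2888 CPM against 1798 and 1750 CPM and rose by 0.54 ± 0.11 (log2, SE). RPS27A, which is made as a fusion with ubiquitin, was 1696, 1376, 1303 and 1967 CPM against 943 and 978 CPM and rose by 0.72 ± 0.15 (log2, SE). In all 3 the naive libraries lay above the primed libraries, and VPA was the highest.

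The lateral stalk recruits translation factors to the large subunit and is built from RPLP0, RPLP1 and RPLP2 on a base that contains RPL12. All 4 rose, but not evenly. RPL12 rose by 0.95 ± 0.13 and RPLP2 by 0.89 ± 0.10, whereas RPLP0 rose by 0.43 ± 0.10 and RPLP1 by 0.39 ± 0.13 (log2, SE). RPLP0, which anchors the stalk, was 3132, 3009, 3312 and 3229 CPM in naive and 2086 and 2622 CPM in primed libraries, so that the primed libraries differed more from each other than the naive ones did. RPL5 and RPL11, which bind 5S rRNA and can bind and inhibit MDM2, rose by 0.31 ± 0.09 and 0.80 ± 0.10 (log2, SE). RPL11 was 1552, 1307, 1350 and 1608 CPM against 836 and 831 CPM, with wide separation, and RPL5 was 1981, 1718, 1790 and 1967 CPM against 1569 and 1444 CPM.

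Of the members, 4 lie on the X chromosome, and all 4 rose. Besides RPL36A and RPL10 these were RPL39, a short protein of the exit tunnel, at 0.95 ± 0.15, and RPS4X at 0.47 ± 0.09 (log2, SE). Their median of 1.09 stood above the 0.57 of the 73 autosomal members, a difference that was not tested. RPL39 was 429, 341, 353 and 485 CPM in naive and 228 and 188 CPM in primed libraries, and RPS4X was 2417, 2325, 2258 and 2566 CPM against 1646 and 1803 CPM. The groups were apart in both. The rest of the X chromosome did not share this direction. Of 622 other X-linked protein-coding genes tested, 128 were higher and 324 lower, with a median log2 fold change of -0.62. Of 16074 other autosomal protein-coding genes, 4400 were higher and 5896 lower, with a median of -0.12.

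Relative to each other most RP mRNAs changed by 0.5 or less on the log2 scale. Each member was also taken as a share of the RP counts in its library, a quantity that the scaling of libraries does not touch. Shares ran from 0.200% to 4.42%, and the change in share between the states was within 0.5 on the log2 scale for 73 of the 77 members, with an SD over members of 0.28. In 22 members every naive share lay above both primed shares, in 22 every naive share lay below, and in 33 the groups overlapped. Of all genes tested, taken relative to the RP counts, 18.3% lay above and 47.3% below. The shares of RPL36A, RPL10, RPSA and RPL8 increased most, by 0.74, 0.64, 0.51 and 0.42, and those of RPS26, RPL35, RPS20 and RPL10A fell most, by 0.85, 0.46, 0.43 and 0.41 (log2). When edgeR was run with the library size set to the RP sum, 12 members were higher (13.5% of all genes), 17 were lower (41.3% of all genes) and 48 were not called.

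The naive libraries did not all stand at the same level. VPA was the highest of the 4 in 68 members, AICAR 1 in 6 and CA-p38 in 3, whereas AICAR 2 was the lowest in 55 and CA-p38 in 22. The AICAR libraries, which share line and treatment, differed in one direction, with AICAR 1 above AICAR 2 in all 77 members and a median log2 difference of 0.23, against 0.00 over all genes. VPA exceeded AICAR 2 by a median of 0.31. These are differences between single libraries and have no replicate check, and the 0.23 between libraries of the same treatment shows how far RP levels moved between libraries with the same treatment label. The coefficient of variation among the naive libraries had a median of 10.2% and ran from 4.12% to 25.1%. The primed libraries were less ordered, with primed EOS above primed CA-p38 in 49 members and below in 28, and a median difference of 0.04. RPS7 was the farthest below (-0.39).

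**Figure D3:**
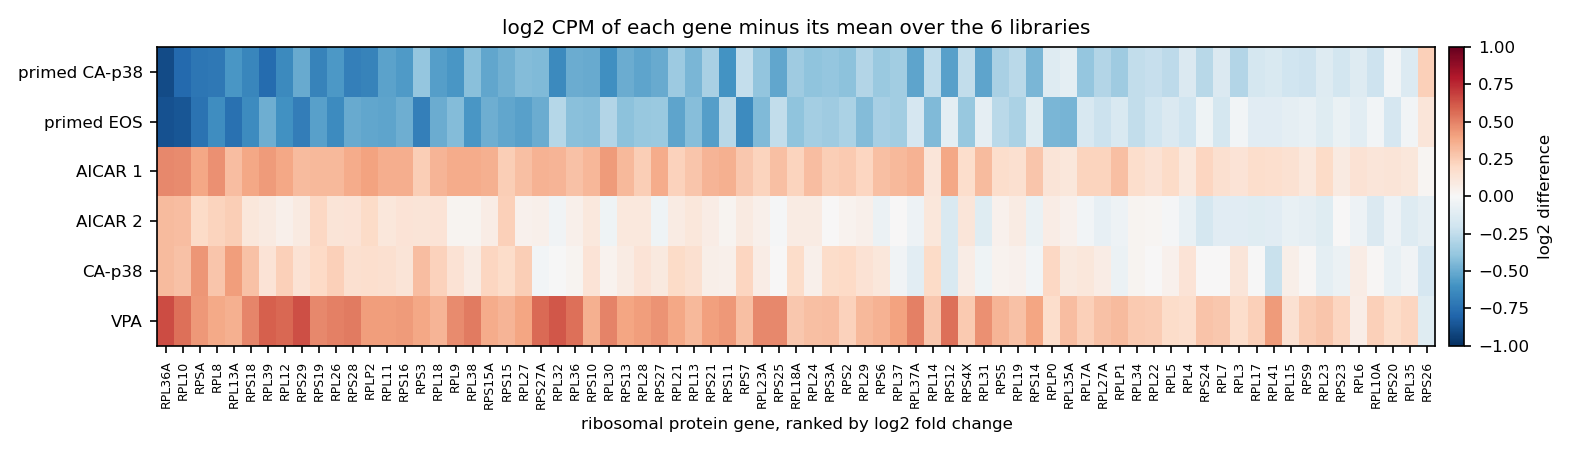
Log2 CPM of 75 of the 77 RP genes minus each gene's mean over the 6 libraries, with libraries in rows and genes in columns ranked by log2 fold change (red, above the mean; blue, below). The primed rows are blue for nearly all genes, and among the naive rows VPA is darkest red, being the highest naive library in 68 of 77 genes.

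Cells from the 2 parental lines gave like values. In the CA-p38 line, naive cells exceeded their own primed cells in 74 members and fell below in 3 (RPL41, RPS20 and RPS26), with a median log2 difference of 0.49. In the EOS line, the mean of AICAR 1, AICAR 2 and VPA exceeded primed EOS in 76 members, with a median of 0.59. Taken singly, the medians against primed EOS were 0.63, 0.45 and 0.75. The 2 lines share no library, and across the 77 members their changes had a Pearson r of 0.85 and a Spearman rho of 0.83, given as a description because genes are not independent replicates. With parental line as a block, 62 members were higher and 1 was lower.

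Levels can be compared between genes only per length, and this comparison was fragile. Per kilobase of the canonical mRNA in GENCODE, the 5 highest primed levels included RPLP0 (2130 CPM per kb), RPLP2 (1873), RPL19 (1781) and RPL35 (1746), beside a median of 810 over the members. In naive cells RPLP2 was first, at 3468 CPM per kb, and 7 of the 10 highest members were the same in both states. With the length of all annotated exons in place of the canonical mRNA, none of the 5 stayed among the 5 highest. The canonical mRNA of RPL37 is annotated at 7573 bases, beside a median of 785 over the members, which puts RPL37 last at 75.4 CPM per kb. Across members the log2 fold change had a Spearman rho of -0.18 with mRNA length and 0.00 with the primed level per kb, given as a description.

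Short mRNAs as a class had a lower median than the RP genes. Among protein-coding genes outside the members, the median log2 fold change was 0.15 for 1192 genes with mRNAs under 1000 bases, 0.02 for 6492 genes of 1000 to 3000 bases and -0.28 for 9012 longer genes. For 780 other protein-coding genes averaging 200 CPM or more it was -0.14. The 78 mitochondrial RP genes, which build the separate ribosome of mitochondria, had 26 higher and 19 lower and a median of -0.02, beside 26% higher and 27% lower over all genes.

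FAU, whose ribosomal protein belongs to the small subunit, rose by 0.45 ± 0.10 (log2, SE). It was 447, 422, 410 and 497 CPM in naive and 327 and 325 CPM in primed libraries, with no overlap. Paralogs are copies of RP genes that encode similar proteins. Of 8 tested, 4 were higher, 2 were lower and 2 were not called, beside 26% higher and 27% lower over all genes. RPL3L, known as the muscle form of RPL3, was 12.9, 9.30, 12.4 and 12.3 CPM in naive and 0.909 and 0.960 CPM in primed libraries, and its log2 fold change was 3.65 ± 0.26 (SE, edgeR adjusted p = 1.12e-07). Its level remained far under that of RPL3, which was not called (log2 fold change 0.24, adjusted p = 0.0731). RPS27L, a relative of RPS27, was 89.6, 87.7, 81.6 and 105 CPM against 28.8 and 32.2 CPM and rose by 1.58, whereas RPS27 rose by 0.67. RPL10L, at 0.344 to 1.59 CPM in naive and 0.0817 and 0.141 CPM in primed libraries, rests on few counts.

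RPL22L1 and RPL39L went the other way from their counterparts. RPL22L1 was 36.2, 30.7, 38.2 and 54.6 CPM in naive and 112 and 122 CPM in primed libraries, with no overlap. Its log2 fold change was -1.55 ± 0.18 (SE, edgeR adjusted p = 8.37e-06), whereas RPL22 rose by 0.32 ± 0.10 (SE). RPL39L fell by 0.41 and RPL39 rose by 0.95, and the call for RPL39L was lost without primed EOS (adjusted p = 0.0655). RPL36AL rose by 0.32 on the log2 scale, a call that was lost without AICAR 1 (adjusted p = 0.0556), VPA (0.071) or primed EOS (0.318), and RPL26L1 and RPL7L1, at 0.20 and -0.10, were not called. A paralog and its counterpart were measured in the same libraries, and the difference between their changes was not tested. Reads from near-identical stretches of such pairs and of pseudogenes could be assigned to either.

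**Figure D4:**
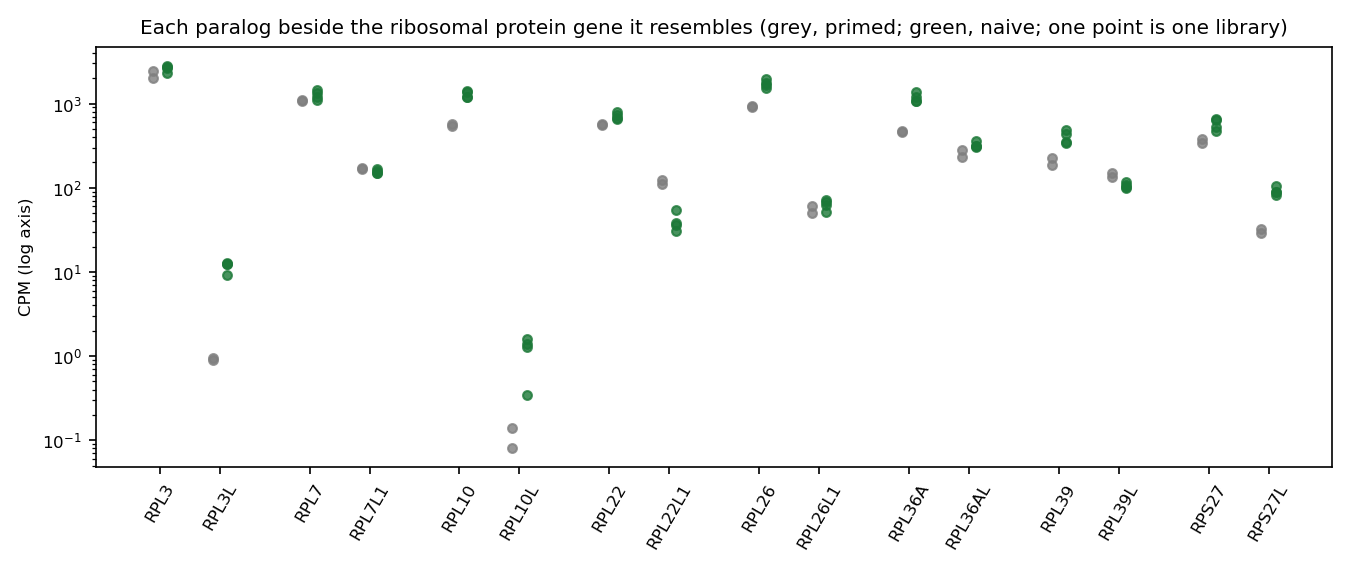
Level in CPM, on a log axis, of 8 RP genes and the paralog beside each, with one point for each library (grey, primed; green, naive). RPL3L and RPS27L stand higher in naive libraries, and RPL22L1 and RPL39L stand lower, whereas RPL22 and RPL39 stand higher.

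Other mRNAs known to carry a TOP tract moved in both directions, more often up. Of 16 tested, 8 were higher and 3 were lower, beside 26% and 27% over all genes, and the median log2 fold change was 0.23. Translation factors and related genes led the rise, with TPT1 at 0.85, EEF1G at 0.74 and EIF3H at 0.52, and RACK1, a protein of the small subunit, at 0.47. The 3 lower genes were VIM, an intermediate filament gene (-6.28), HNRNPA1 (-0.58) and NAP1L1 (-0.36). EEF1G, a subunit of the elongation factor that reloads EEF1A, was 1298, 1155, 1357 and 1321 CPM in naive and 776 and 758 CPM in primed libraries. VIM was 4.87, 4.29, 6.33 and 4.05 CPM against 394 and 364 CPM, and it is known as a gene of mesenchymal cells as well as a TOP mRNA. A tract at the first base was found in 7 of the 10 genes of this list with a matched window.

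Among genes that control RP mRNAs, calls fell in both directions. Of 16 regulators of TOP mRNAs and growth, 8 were higher and 4 were lower, beside 26% and 27% over all genes. DEPTOR, an inhibitor that binds mTOR, was 70.3, 71.3, 70.3 and 73.2 CPM in naive and 0.828 and 0.899 CPM in primed libraries, so its log2 fold change was 6.36 ± 0.17 (SE, edgeR adjusted p = 2.38e-11). LARP1, which binds TOP tracts, was 304, 292, 281 and 254 CPM against 526 and 566 CPM and fell by 0.95, and RHEB, the activator of mTOR complex 1, fell by 0.99. The S6 kinase gene RPS6KB2 rose by 0.71. Without primed EOS, 4 of the regulators were higher, and without primed CA-p38, 2 were lower. Of 10 genes of the MYC network, 3 were higher and 2 lower, close to the 26% and 27% over all genes. MYC, an activator of RP gene transcription, was 14.8, 10.1, 6.84 and 3.69 CPM in naive and 54.4 and 71.5 CPM in primed libraries and fell by 2.83. MYCL rose by 1.24, MXD1 by 0.93 and MXI1 fell by 1.57, with the calls of MXD1 lost without AICAR 2 (adjusted p = 0.0559) or primed CA-p38 (0.184) and that of MXI1 without primed EOS (0.0583). These are mRNA levels, and neither kinase activity nor translation was measured here.

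Among the factors that assemble ribosomes, more were lower than higher. Over 5 lists, covering RNA polymerase I, the small subunit processome, large subunit assembly, snoRNP proteins and RP chaperones, 14 of 134 genes were higher and 60 were lower (44.8%), with a median log2 fold change of -0.24. Over all genes tested 26% were higher and 27% lower. Protein-coding genes outside the members with mRNAs of 3000 bases or more came close to this median and share lower. Of these 9012 genes, 2136 were higher and 3914 lower, with a median of -0.28. The part of mRNA length was not tested. With library totals or limma-voom, 28 of the 134 assembly genes were higher. In the small subunit processome, the particle that folds and cuts the pre-rRNA of the small subunit, none of 39 genes was higher and 22 were lower (56.4%), beside 26% higher and 27% lower over all genes. Its summed level was 2840 to 2962 CPM in naive and 3604 and 4301 CPM in primed libraries. BMS1, UTP20, HEATR1 and WDR75 fell by 1.33, 1.18, 1.13 and 1.0 on the log2 scale. Without primed CA-p38, in which this sum was higher than in primed EOS, 38 of the 134 genes were lower.

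Large subunit assembly factors were also lower more often than higher, with 22 lower and 8 higher of 53, beside 27% and 26% over all genes. Their summed level was 9599 to 10150 CPM in naive and 12151 and 13268 CPM in primed libraries. TEX10, MDN1 and EFL1 fell by 1.62, 1.5 and 1.29. SBDS, which acts with EFL1 to release the anti-association factor EIF6 from new large subunits, rose by 1.74. None of 15 chaperones and import receptors for ribosomal proteins was higher and 9 were lower, among them IPO9, GRWD1, IPO5 and KPNB1 at -1.13, -0.80, -0.75 and -0.63. GRWD1, a chaperone of RPL3, was 69.3, 70.3, 65.5 and 64.5 CPM in naive and 96.4 and 138 CPM in primed libraries. RNA polymerase I and rDNA factors (4 higher and 5 lower of 15) and snoRNP proteins (2 higher and 4 lower of 14) were mixed. TAF1A and POLR1B fell by 1.38 and 0.80, while TAF1D and TAF1C rose by 0.97 and 0.65. RUVBL1 and RUVBL2 fell by 0.86 and 0.49, while SNU13 and NOP58 rose by 0.75 and 0.47, with the call of NOP58 lost without primed EOS (adjusted p = 0.0574).

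**Figure D5:**
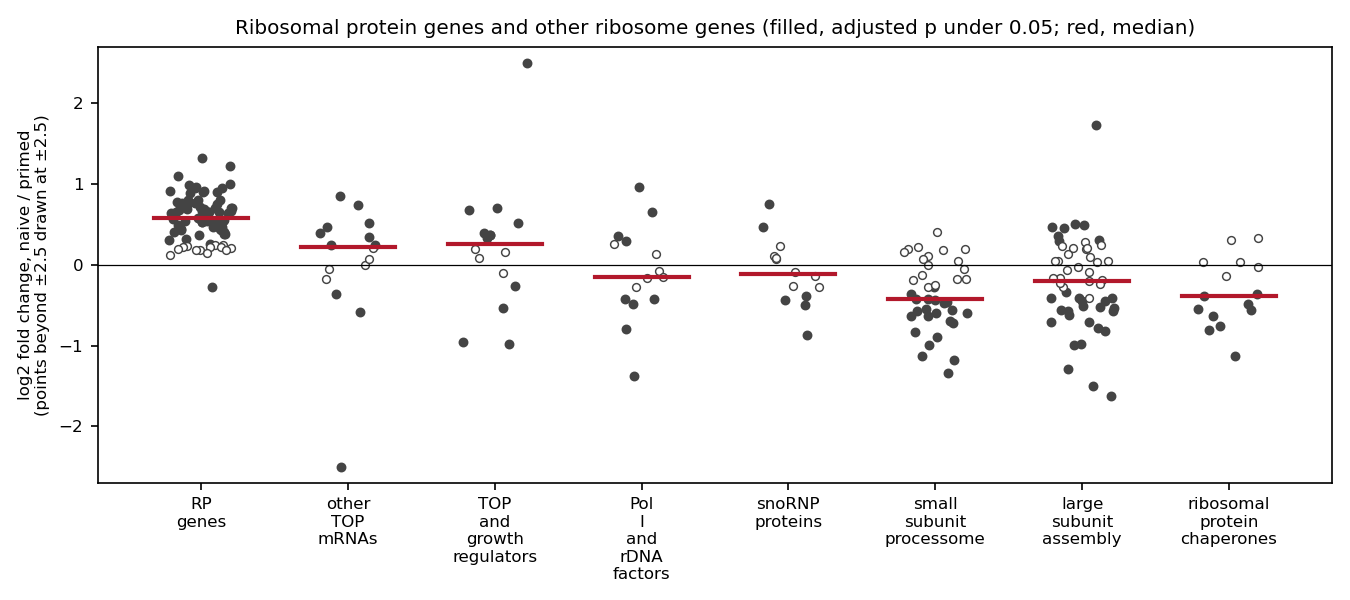
Log2 fold change of naive over primed cells for the RP genes and 7 other lists of ribosome-related genes, with one point for each gene (filled, adjusted p under 0.05) and the median in red. The RP genes have a median of 0.58, and the small subunit processome and the chaperones have medians of -0.42 and -0.39, while 1 gene each of the TOP mRNAs and the regulators lies beyond the axis.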

How the data were processed

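Bulk poly(A) RNA-seq of 6 libraries was analysed. The authors deposited whole-number read counts for each Ensembl gene. Adapters had been removed by cutadapt 1.15 through Trim Galore 0.4.4, and reads had been mapped by Bowtie2 to Ensembl GRCh38 cDNA and noncoding RNA, where only hits of mapping quality 1 or more were kept. Use of strand in counting is not given in the sources used here. Because mapping was to transcripts, reads of pseudogenes, paralogs and alternate haplotypes could be spread over several identifiers. The table holds 61196 identifiers, and 26 spike-in rows were left out of library totals. Another 23 columns of other samples were not used.

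Counts were summed by symbol, which joined several identifiers in 5 members (22 identifiers), and were tested with edgeR 4.0.16 (R 4.3.3; TMM factors, filterByExpr, glmQLFit and glmQLFTest, Benjamini-Hochberg adjustment over 26497 genes, threshold 0.05). The levels are TMM-scaled CPM. With 46823699 to 54277064 counts a library, a floor of 3 counts is 0.0553 to 0.0641 CPM, and it covers counting error only. Positions and mRNA lengths came from GENCODE release 44, and start windows from RefSeq. The scripts were tested on simulated data. DESeq2 1.42.0, limma-voom 3.58.1, other scalings and filters, pseudogenes, a parental line block and leaving out each library were alternatives. The members and lists were chosen with earlier results of these data known. Named genes were the 6 highest and 6 lowest called members, RPS18, RPSA, the X-linked, stalk, 5S and paralog lists, FAU, the 5 highest members per length, the 4 largest rises and falls in RP share, and up to 4 called genes from each other list. A few genes that this rule names are not reported here. RPL3, RPL41, RPS6, RPS7, RPS19, RPS27, RPS27A and the uncalled members, outside this rule, and the genes whose start windows are shown were chosen after their values were seen.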

Additional observations from a re-analysis of the deposited data

Results flagged for a closer look

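RPL3L had 1 naive library far from the other 3: AICAR 2 stood at 9.30 CPM, and its gap to the nearest library was 0.849 of the range of the naive values. It was the only such case among 122 results examined, where chance would give about 1 in 20. In 2 genes the CA-p38 naive library moved in the opposite direction to every one of the 3 EOS-line naive libraries, each taken against its own primed library. RPS20 was lower in CA-p38 than in primed CA-p38 (-0.047 on the log2 scale) and higher in each EOS-line naive library than in primed EOS (0.12 to 0.36). RPL26L1 was likewise lower in the CA-p38 line (-0.24) and higher in the EOS line (0.33 to 0.52). These differences between the lines were not tested.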

How the results depend on the processing

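Of 17 settings that did not scale on the RP genes, the main one included, 49 members were called in every one and 76 had a positive log2 fold change in every one. Leaving out 1 library at a time gave 50 to 68 higher members, with the fewest without primed CA-p38, 0 to 1 lower members, and medians of 0.52 to 0.65. The same range was 6 to 16 higher (9 without AICAR 1) and 38 to 61 lower for the assembly factors, 4 to 7 and 2 to 4 for the regulators, and 1 to 2 lower paralogs. The cause of these moves was not tested. With library totals and with limma-voom, 0 members were lower and 28 assembly factors were higher. RPL7L1 turned to 0.0025 with library totals. DESeq2 gave 61 higher members and 1 lower. The RP share, computed on TMM-scaled CPM (an alternative added after seeing the data), differed by 0.58 on the log2 scale and with library totals by 0.68.

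With the library size set to the RP sum, changes are relative to the RP pool by construction. The members then numbered 12 higher and 17 lower with a median of -0.0078, the assembly factors 2 and 111, the other TOP mRNAs 1 and 10, the regulators 1 and 7, and 4 paralogs were lower. Over all genes tested 13.5% were higher and 41.3% lower under this scaling. With it RPL10A (-0.41), RPL19 (-0.14), RPL22 (-0.26), RPL34 (-0.21), RPL35 (-0.46), RPL4 (-0.33), RPL5 (-0.28), RPLP0 (-0.15), RPLP1 (-0.20), RPS20 (-0.44), RPS4X (-0.11), RPL26L1 (-0.39), RPL36AL (-0.26), FAU (-0.14) and NOP58 (-0.11) turned negative on the log2 scale. Of these, RPL19, RPL34, RPLP0, RPLP1, RPS4X, RPL36AL, FAU and NOP58 were not called. Other members turned negative too, among them RPL3, RPL6, RPL7, RPL15, RPL17, RPL23, RPL41, RPS9, RPS23 and RPS24, which were called lower. The labels give naive and primed libraries no shared replicate numbers, and the pairing used was by parental line, which as a block gave 62 higher members and 1 lower. With 2 primed libraries, leaving out either leaves 1, which is assumed to vary like the naive libraries.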
